A study of Mus musculus with 8 samples.

Results

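The matrix proteases and their inhibitors described here are 51 genes of the mouse liver atlas: the matrix metalloproteinases (MMPs), the tissue inhibitors of metalloproteinases (TIMPs), the ADAMTS proteases (a disintegrin and metalloproteinase with thrombospondin motifs) and the ADAMTS-like proteins. They were chosen by gene symbol alone, as every row named Mmp, Timp, Adamts or Adamtsl with a number, and they make up 51 of the 46517 genes of the count table. The table holds 3491 single cells from livers of adult mice aged 8 weeks to 1 year, sequenced by Smart-seq2, a plate-based method that reads cDNA over the whole transcript. Besides C57BL6/J mice without a transgene, the study used mice with heterozygous reporter transgenes (*Pdgfrb* GFP, *Pdgfra* H2bGFP, *Cspg4* dsRED, *Acta2* GFP or *Cldn5* GFP, alone or combined), and no group was treated. Cells were sorted on these reporters or with antibodies against endothelial (CD31, VE-cadherin), epithelial (EPCAM), macrophage (CD68) or fibroblast (PDGFRα) proteins, while hepatocytes were taken without selection, so the number of cells of a type reflects the sort. The 8 samples of the series are a male and a female pool of mesenchymal, endothelial, immune and epithelial (parenchymal) cells. The cell classes, cluster numbers and cluster names were taken from the authors' annotation, which was built on the same transcriptomes, so part of every difference between clusters is built into the clusters themselves. A reporter marks the cells in which its promoter is active, which limits the mesenchymal and endothelial groups to such cells and to those that bound an antibody.

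MMPs are zinc endopeptidases that cleave collagens, gelatins, proteoglycans and many non-matrix proteins, and most are made as inactive precursors. TIMPs bind the active site of these enzymes and block it, and TIMP3, which stays bound to the matrix, also blocks several ADAM and ADAMTS proteases. The ADAMTS family includes proteases that trim procollagens, cleave large proteoglycans or cut von Willebrand factor, while the ADAMTS-like proteins lack a protease domain and bind to fibrillin-rich microfibrils. In the liver the balance between these enzymes and their inhibitors is best known from fibrosis, in which collagen laid down by mesenchymal cells is later removed or retained.

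Total counts per class pool ranged from 6399550 in the 39 female epithelial cells to 218419420 in the 998 male mesenchymal cells, and the median per cell ranged from 88932 to 321121 counts. Levels are given as CPM, a gene's counts per 1000000 counts summed over the cells of a class or cluster, without the 92 ERCC spike-ins. Each class showed the highest CPM of its own markers, with *Pdgfrb* between 958 and 1221 CPM in the mesenchymal pools against at most 13.9 CPM elsewhere. Markers of other cells were not at 0: *Alb*, a hepatocyte gene, stood at 118 to 365 CPM in the pools outside the epithelial class. *Cdh5*, which also served as an endothelial marker, stood at 110 to 327 CPM in the immune pools, with 394 CPM in the Kupffer cluster i3 and 3.73 CPM in B cells. A pool was taken as the replicate, because no label names the mouse, and each class has 1 male and 1 female pool. The p-values therefore measure the spread between these sums, populations of a pool share animals, and sex cannot be told apart from plate and sort.

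Of the 51 members, 42 reached 10 CPM in at least 1 class pool or 1 of 38 cell populations. The mesenchymal class held the highest level of 28 of them, the immune and the epithelial class of 5 each and the endothelial class of 4, and for 37 of the 42 both pools gave the same class. The top class was not counted over all genes, so no share of all genes stands beside these counts. The other 9 members, *Mmp1a*, *Mmp1b*, *Mmp8*, *Mmp10*, *Mmp20*, *Mmp21*, *Adamts18*, *Adamts19* and *Adamts20*, stayed at or below 1.40 CPM in every class pool and 3.25 CPM in every population with both pools summed. Breadth differed widely among the members. Only *Mmp7* and *Adamts16*, which reached 10 CPM in the cholangiocytes, and *Mmp25*, which did so in the monocyte cluster i2c, passed that level in a single population, whereas *Mmp2*, *Mmp14*, *Mmp19*, *Mmp24*, *Timp2*, *Timp3*, *Adamts1* and *Adamts10* passed it in 26 or more. *Mmp24*, a membrane-bound MMP, was present in every class, from 12.7 CPM in male endothelial to 54.0 CPM in female mesenchymal cells. It was highest in the mesothelial cluster m16c at 84.3 CPM, from only 6 cells, with m9c next at 61.2 CPM from 39 cells. *Adamts17* reached 10 CPM in the mural clusters m8c and m15c, at 16.7 and 12.5 CPM, and stayed at or below 2.69 CPM in every class pool.

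**Figure D1:**
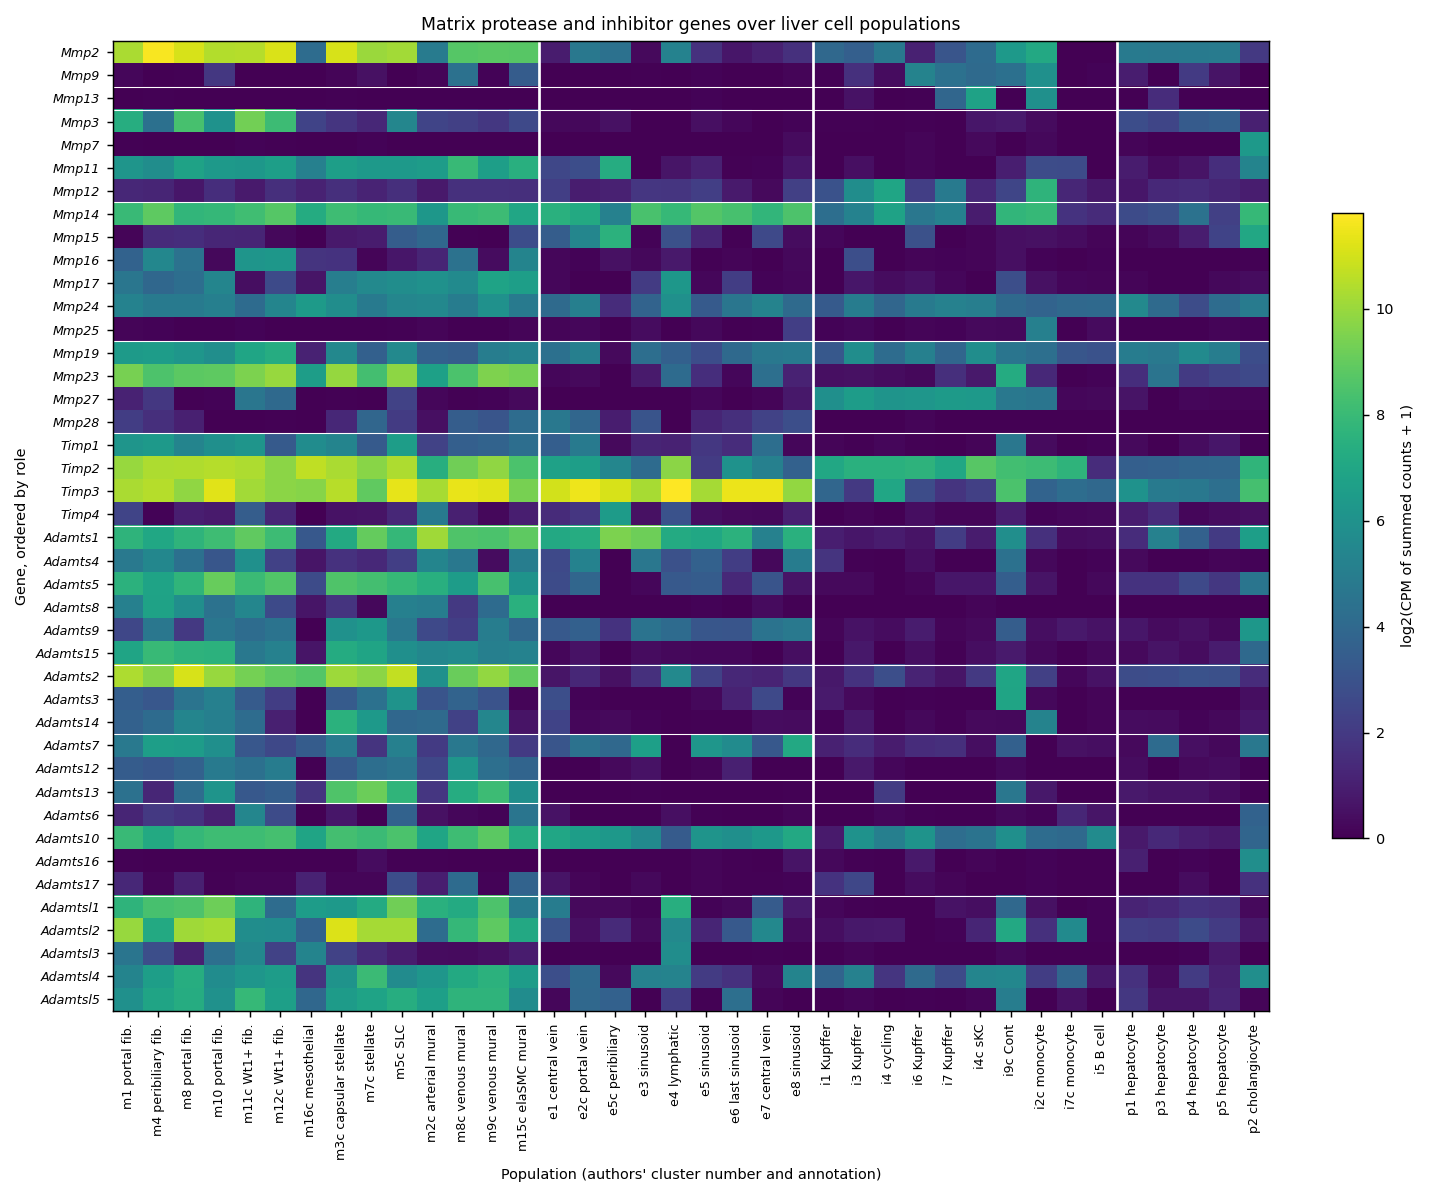
Level of the 42 members that reached 10 CPM (rows, ordered by role) over the 38 cell populations (columns, with the authors' cluster number and annotation), as log2 of CPM plus 1 of the summed counts of both pools. White lines separate the mesenchymal, endothelial, immune and epithelial populations, and most rows are brightest in the mesenchymal columns, with *Timp3* bright in the endothelial columns as well and *Mmp7* and *Adamts16* bright in the cholangiocytes only.

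Most members were highest in mesenchymal cells. Against the mean log level of the other 3 classes, 26 of the 43 members tested were higher in mesenchymal cells, where 9.47% of all genes tested were called higher, and 1 was lower, where 2.33% were. The lower one, *Adamts16*, was no longer called when the pool was fitted as a block. The median log2 fold change of the members was 3.58, beside 0.02 over all genes tested. All 4 TIMPs and all 5 ADAMTS-like genes were among those called, together with 2 of 3 procollagen N-proteinases, 5 of 6 tested proteoglycan-cleaving ADAMTS genes, and 2 of the 6 membrane-bound MMPs. A call required a change of 1 or more on the log2 scale together with an adjusted p below 0.05, and DESeq2 called 29 members higher, beside 11.6% of all genes it tested, and 4 lower, beside 6.64%. The summed level of 13 genes that respond early to tissue dissociation was 11426 and 11911 CPM in the male and female mesenchymal pools. It ran from 3227 CPM in female immune to 10448 CPM in female epithelial cells over the other pools. Its part in the class differences was not tested.

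The gelatinase *Mmp2*, which cleaves denatured collagen and basement membrane collagen (chr8:92827291-92853420, genome build GRCm38), reached 1613 (male) and 722 CPM (female mesenchymal pool). In the other pools it lay between 0.469 CPM in female epithelial and 35.4 CPM in male immune cells, so the groups did not overlap (log2 fold change 7.10, SE 0.91, adjusted p = 0.00211). *Mmp3*, stromelysin-1, which cleaves proteoglycans and activates other MMPs, reached 119.9 and 73.8 CPM in the mesenchymal pools and at most 3.95 CPM elsewhere (log2 fold change 8.45, SE 1.06, adjusted p = 0.00190). *Mmp23*, a short MMP with an unusual cysteine-rich domain, stood at 502 and 607 CPM, with at most 16.9 CPM in another pool (log2 fold change 6.86, SE 0.72, adjusted p = 0.00103). Both mesenchymal pools were thus above every other pool for each of these 3 genes. The membrane-bound *Mmp16* and *Mmp17* were also higher, from 15.5 to 18.3 CPM and from 31.0 to 52.5 CPM, with log2 fold changes of 6.65 ± 1.02 (SE) and 5.43 ± 0.96. *Mmp11*, stromelysin-3, stood at 90.4 and 100.2 CPM, above the epithelial pools at 23.97 and 42.7 CPM (4.30 ± 0.87).

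*Mmp14*, the membrane-bound MMP that activates the precursor of MMP2, did not follow *Mmp2*. It measured 287 and 162 CPM in the male and female mesenchymal pools and 295 and 251 CPM in the endothelial pools. The epithelial pools lay at 153 and 197 CPM and the immune pools at 61.7 and 38.8 CPM. The immune class was the one class called against the mean of the other 3, and it was lower (log2 fold change -2.03, SE 0.43, adjusted p = 0.0181).

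The TIMPs split by class. *Timp2* (chr11:118301069-118355740), the inhibitor that also takes part in the activation of MMP2, measured 1162 and 569.7 CPM in the mesenchymal pools and between 49.3 and 189.7 CPM in all others (log2 fold change 2.96, SE 0.38, adjusted p = 0.00201). *Timp1*, known as the TIMP that rises in fibrosis, was far lower on the CPM scale, at 51.8 and 29.9 CPM in mesenchymal and 8.52 and 6.16 CPM in endothelial cells (log2 fold change 5.48, SE 1.07, adjusted p = 0.0131 for mesenchymal cells). *Timp3* (chr10:86300372-86349506) was high in both the mesenchymal pools, at 1758 and 1067 CPM, and the endothelial pools, at 1546 and 2617 CPM. The mesenchymal and endothelial pools overlapped, and both lay above the epithelial pools at 213 and 233 CPM and the immune pools at 28.4 and 15.3 CPM. Each of those 2 classes was called higher than the mean of its other 3 (2.77 ± 0.36 for mesenchymal, 3.37 ± 0.36 for endothelial cells), and the immune class was called lower (-5.21 ± 0.56). *Timp4* stood at 2.20 (male) and 13.7 CPM (female mesenchymal pool), and the male pool was below the 2.43 CPM of male endothelial cells although the mesenchymal class was called higher (log2 fold change 4.08, SE 1.0, adjusted p = 0.0332). This call ended when the pool was fitted as a block.

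**Figure D2:**
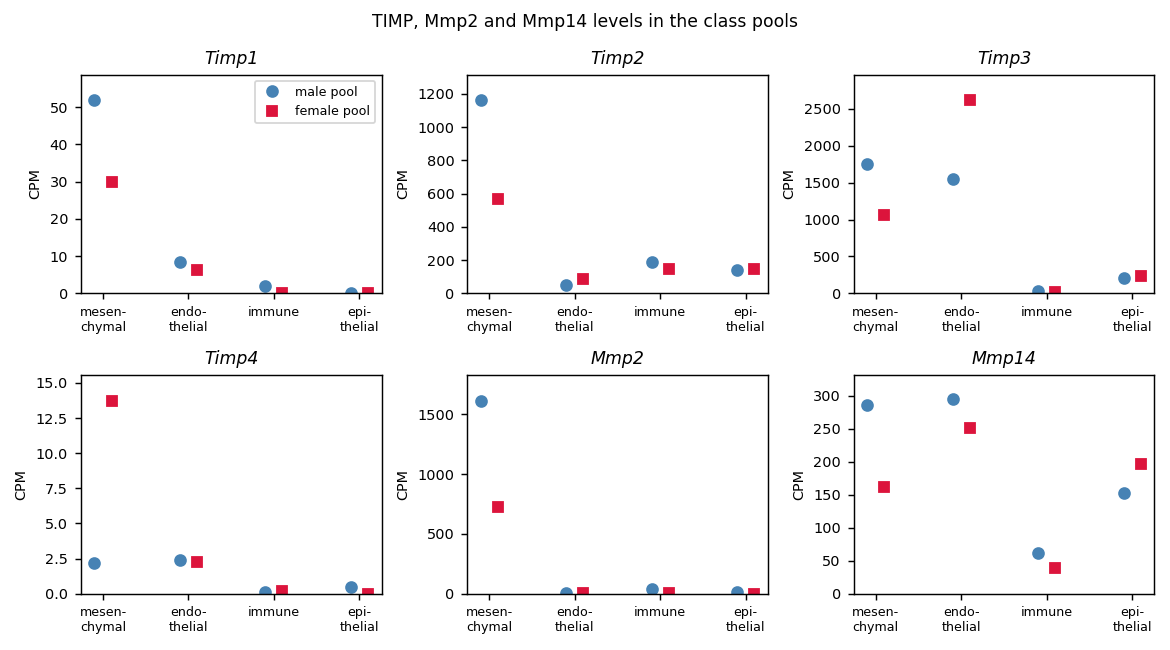
CPM of the 4 TIMPs, *Mmp2* and *Mmp14* (vertical axes, linear, each panel with its own scale) in the 4 cell classes, with circles for the male pool and squares for the female pool. *Mmp2* rises above the axis only in mesenchymal cells, *Timp3* is high in mesenchymal and endothelial cells, and *Mmp14* is present in all classes at 38.8 CPM or more.

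Per kilobase of exon, the scale on which genes can be compared, *Mmp2* was the highest member of the mesenchymal class at 388 CPM per kb, followed by *Timp2* at 246, *Mmp23* at 230.0 and *Timp3* at 187 CPM per kb. In endothelial cells *Timp3* stood at 241 CPM per kb, with *Adamts1* at 50.1 and *Mmp14* at 46.6 CPM per kb next in order. The order was not the same in each pool, since *Mmp23* was above *Mmp2* in the female mesenchymal pool. In endothelial cells *Adamts1* stood at 68.9 CPM per kb in the male but 20.6 CPM per kb in the female pool, where *Mmp14* at 42.1 and *Timp2* at 22.2 CPM per kb lay above it. Epithelial cells were led by *Mmp7* at 47.3 CPM per kb and immune cells by *Timp2* at 41.2 and *Mmp27* at 29.7 CPM per kb, with *Mmp27* the higher of the pair in the female immune pool.

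Among the ADAMTS proteases, the procollagen N-proteinase *Adamts2*, which removes the amino-terminal propeptide of fibrillar procollagens, reached 1047 and 676 CPM in the mesenchymal pools and at most 5.52 CPM in any other (log2 fold change 8.19, SE 0.48, adjusted p = 1.60e-04). Its relative *Adamts14* was also called (40.6 and 18.1 CPM, 4.89 ± 1.21), and *Adamts3*, at 22.7 and 4.54 CPM, was not (0.408 as adjusted p). Of the proteases that cleave aggrecan and versican, *Adamts5* stood at 261 and 222 CPM (6.21 ± 0.66), *Adamts8* at 37.0 and 36.8 CPM (11.12 ± 1.17) and *Adamts15* at 125 and 79.1 CPM (6.58 ± 0.77). *Adamts5* and *Adamts1* are neighbours on chromosome 16, and *Adamts15* and *Adamts8* on chromosome 9. *Adamts1* was shared with endothelial cells: it measured 359.9 and 485 CPM in mesenchymal and 365 and 109 CPM in endothelial cells, and both classes were called higher (3.58 ± 0.43 and 2.35 ± 0.44).

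*Adamts13*, the protease that cuts von Willebrand factor, reached 112 and 76.7 CPM in the mesenchymal pools and at most 1.22 CPM in any other (log2 fold change 9.47, SE 1.02, adjusted p = 0.00110). The microfibril-binding *Adamtsl2* measured 816 and 609 CPM there against at most 14.9 CPM elsewhere (7.37 ± 0.53), and *Adamtsl1* measured 308 and 173 CPM against at most 17.7 CPM (7.17 ± 0.69). *Adamtsl3*, *Adamtsl4* and *Adamtsl5* were called at 6.54 ± 1.33, 1.99 ± 0.42 and 6.70 ± 0.81, with *Adamtsl4* also present at 33.1 and 83.1 CPM in epithelial cells. *Adamts4*, *Adamts10* and *Adamts12* were called at 4.13 ± 0.71, 3.17 ± 0.37 and 6.62 ± 1.12, the latter pair at levels of 229 and 267 CPM and of 22.2 and 6.67 CPM. In all of these ADAMTS and ADAMTS-like genes except *Adamts1* and *Adamts3*, both mesenchymal pools lay above all 6 other pools. The share of all genes with this order was not computed.

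In endothelial cells 5 members were called higher, beside 5.33% of all genes, and 7 were called lower, beside 2.96%. *Timp3* and *Adamts1* are described above. *Adamts4* was called at 20.1 and 8.50 CPM (3.08 ± 0.71), although the mesenchymal pools were at 22.7 and 23.4 CPM. *Mmp28*, epilysin, was highest in endothelial cells, at 10.3 and 7.86 CPM against 2.84 and 3.81 CPM in mesenchymal cells (log2 fold change 7.94, SE 1.04, adjusted p = 0.00599). *Mmp21* was called at a level of only 0.502 and 0.398 CPM. *Mmp9*, *Mmp23*, *Mmp27*, *Adamts2*, *Adamts13*, *Adamts15* and *Timp2* were lower, for example *Mmp9* at 0.0346 and 0.0271 CPM (-6.17 ± 1.20). With the pool fitted as a block, the calls of *Adamts4*, *Mmp21* and *Mmp23* ended. A contrast with the mean log level of 3 classes is pulled down by a class near 0: no count of *Mmp28* was found in the epithelial class, and *Mmp28* in mesenchymal, *Adamts4* in endothelial and *Adamts15* in epithelial cells were called higher although another class was highest. DESeq2 called 4 members higher, beside 9.15% of all genes it tested, and 15 lower, beside 11.6%.

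Immune cells had 4 members called higher, where 7.92% of all genes were, and 11 called lower, where 5.25% were. The higher ones were all MMPs. *Mmp27* measured 35.0 and 83.2 CPM in the immune pools and at most 3.11 CPM elsewhere (log2 fold change 7.26, SE 0.74, adjusted p = 7.93e-04). *Mmp12*, the macrophage metalloelastase, measured 56.7 and 22.4 CPM against at most 2.71 CPM (4.66 ± 0.58). Both immune pools lay above every other pool for these genes. The gelatinase *Mmp9* stood at 13.4 and 18.3 CPM (5.95 ± 0.77) and the collagenase *Mmp13* at 22.99 and 8.86 CPM (9.74 ± 1.21). *Timp3*, *Mmp11*, *Mmp14*, *Mmp15*, *Adamts1*, *Adamts2*, *Adamts5*, *Adamts7*, *Adamts9*, *Adamts15* and *Adamtsl1* were lower. With the pool fitted as a block, the calls of *Mmp11* and *Adamts2* ended. DESeq2 called 6 members higher, beside 12.1% of all genes it tested, and 23 lower, beside 13.7%.

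The epithelial class, hepatocytes and cholangiocytes together, had 6 members called higher, where 8.37% of all genes were, and 6 called lower, where 4.05% were. *Mmp7*, matrilysin, measured 49.6 and 64.4 CPM and at most 0.0723 CPM in another class (log2 fold change 10.77, SE 1.24, adjusted p = 0.00142). The membrane-bound *Mmp15* stood at 81.6 and 124 CPM (5.09 ± 0.57) and *Adamts9* at 42.4 and 120.0 CPM (3.82 ± 0.47). *Adamts16* stood at 25.7 and 171 CPM (10.42 ± 0.99), and *Adamts6* at 7.62 and 9.53 CPM (4.29 ± 0.92). *Adamts15* was called at 4.49 ± 0.73 at 5.40 (male) and 73.4 CPM (female pool), below both mesenchymal pools. The pools differed in their cells: 37 of the 39 female epithelial cells were cholangiocytes, against 157 of 358 male cells. *Mmp28*, *Adamts2*, *Adamts4*, *Adamts10*, *Adamtsl1* and *Adamtsl2* were lower, with *Mmp28* at least 152-fold lower than in the other classes pooled when 3 counts over the class are taken as its limit. With the pool fitted as a block, the *Mmp28* call ended. DESeq2 called 7 members higher, beside 14% of all genes it tested, and 13 lower, beside 12.1%.

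Within the mesenchymal class, 6 fibroblast clusters (portal m1, m8 and m10, peribiliary m4, and m11c and m12c, which the authors annotated as *Wt1*+) were compared with 4 mural clusters (arterial smooth muscle m2c and the clusters m8c, m9c and m15c, annotated as venous or elastic smooth muscle). Fibroblasts had 5 members higher, beside 2.58% of all genes, and 2 lower, beside 1.29%. The MMPs called higher in fibroblasts were *Mmp2*, with a mean over clusters, each the mean of its pools, of 1892 CPM in fibroblasts and 309 CPM in mural cells (log2 fold change 3.21, SE 0.36, adjusted p = 3.29e-06), and *Mmp3*, with 227 and 3.62 CPM (log2 fold change 5.42, SE 0.60, adjusted p = 3.00e-06). For both genes the 10 fibroblast sums lay above the 8 mural sums. *Timp2*, the procollagen N-proteinase *Adamts2* and *Adamtsl3* were higher as well, at 1.60 ± 0.23, 1.38 ± 0.23 and 4.70 ± 1.19. In the other direction, *Adamts1* averaged 241 CPM in fibroblasts and 641 CPM in mural cells (-1.37 ± 0.34), and *Mmp17* averaged 17.2 and 70.3 CPM (-2.81 ± 0.73). *Timp3* did not pass the test, at 1354 and 1675 CPM (-0.18 ± 0.22), and neither did *Mmp14* (0.91 ± 0.34). DESeq2 called 9 members higher, beside 7.53% of all genes it tested, and 4 lower, beside 4.78%. Without the clusters m8 and m10, which hold male cells only, 8 members were called higher, beside 3% of all genes, and 3 lower, beside 1.39%. A single plate held 98.1% of the m8 cells, and a single plate 83.3% of the m10 cells. The 339 female mesenchymal cells all came from 1 plate.

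**Figure D3:**
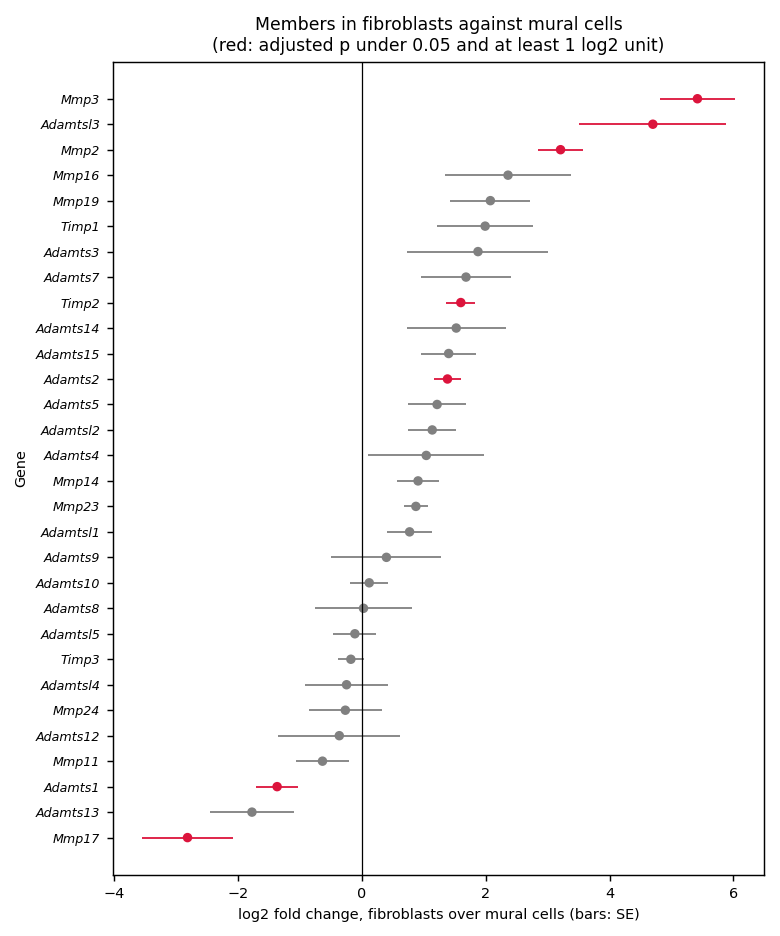
Log2 fold change of fibroblast over mural clusters (horizontal axis) with its standard error (bars) for the members with a mean of at least 10 CPM on a side, from 10 fibroblast and 8 mural sums. Red points passed the test, with *Mmp3*, *Adamtsl3* and *Mmp2* farthest to the right and *Mmp17* farthest to the left.

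Among the fibroblasts, *Mmp2* was highest within each pool in the peribiliary fibroblasts m4, at 3431 (male) and 2238 CPM (female pool), with m12c next at 3325 and 1495 CPM. The portal fibroblasts m1 stood at 1444 and 1103 CPM, within the range of m11c at 1511 and 947 CPM. *Mmp3* took another order, with 685 and 272 CPM in m11c, 398 and 184.5 CPM in m12c, 194 and 139.6 CPM in m1 and 17.6 and 33.5 CPM in m4. A count of *Mmp3* was found in 66.0% (exact interval 51.7 to 78.5%) of the m11c cells and 21.4% (exact interval 13.8 to 30.9%) of the m4 cells. Both sums of m4 were thus the lowest of the fibroblasts for *Mmp3*. The test of m4 against the other fibroblasts nevertheless called 0 members higher and 0 lower, beside 0.0281% of all genes in each direction. Of the 41 members tested, 6 had an unadjusted p under 0.05, and the share of all genes at that p was not computed. DESeq2 called 0 higher, beside 0.693%, and 1 lower, beside 0.717%. The 2 sums of m4 held 89 male and 9 female cells.

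The *Wt1*+ fibroblasts m11c and m12c had 0 members higher, beside 0.23% of all genes, and 3 lower, beside 0.356%. *Adamtsl2* measured 56.5 and 43.5 CPM in m11c and 25.9 and 72.5 CPM in m12c, against 936 and 1078 CPM in m1 and 149.9 and 84.5 CPM in m4, the lowest of the others (log2 fold change -3.67, SE 0.60, adjusted p = 0.00295). *Adamtsl1* (-2.70 ± 0.55) and *Adamts15* (-2.96 ± 0.66) were the others. All 3 calls ended without m8 and m10, at adjusted p of 0.0647 for *Adamtsl2*, 0.136 for *Adamtsl1* and 0.101 for *Adamts15*. DESeq2 called 2 members higher, beside 2.13% of all genes it tested, and 5 lower, beside 2.77%. *Mmp16* was 87.2 and 65.0 CPM in m12c, 41.7 and 219.5 CPM in m11c and 12.5 and 11.9 CPM in m1 but did not pass the test (0.339 as adjusted p).

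Hepatic stellate cells, the vitamin A-storing pericytes of the sinusoid, had 2 members higher than fibroblasts, beside 0.764% of all genes, and 1 lower, beside 0.52%. *Adamts13* measured 323 and 548 CPM in the stellate cluster m3c, annotated as capsular, and 545 CPM in the male pool of the stellate cluster m7c, against at most 67.8 CPM in any fibroblast sum (log2 fold change 5.35, SE 0.92, adjusted p = 0.00260). A count of *Adamts13* was found in 81.9% (exact interval 71.1 to 90.02%) of the m7c cells and 52.2% (exact interval 42.6 to 61.7%) of the m3c cells, and in 0.362% of endothelial cells. *Adamtsl2* measured 2104 and 2891 CPM in m3c and 1180.3 CPM in m7c, which overlapped with the fibroblast sums, of 594 CPM as a mean over clusters and up to 1221 CPM (log2 fold change 2.63, SE 0.49, adjusted p = 0.00484). These genes lie near each other on chromosome 2, *Adamts13* at chr2:26973416-27009628 and *Adamtsl2* at chr2:27079379-27108981 on the same strand. *Mmp3* was lower in stellate cells, at 1.64 and 5.32 CPM in m3c and 1.22 CPM in m7c (log2 fold change -6.26, SE 1.15, adjusted p = 0.00452). The summed level of 13 genes that respond early to tissue dissociation was also lower, at 3793 and 4968 CPM in m3c and 1955 CPM in the male pool of m7c. Over the fibroblast sums it ran from 8274 CPM in the female pool of m4 to 20884 CPM in the male pool of m11c. Elsewhere the order differed: m4, lowest of the fibroblasts for *Mmp3*, held 14817 and 8274 CPM, beside 11300 and 9902 CPM in m1. The arterial cluster m2c held 26745 and 20366 CPM, although *Mmp3* was lower in mural clusters than in fibroblasts. The part of the dissociation genes in the *Mmp3* difference was not tested. *Mmp2* did not pass the test, at 2476 and 1098 CPM in m3c and 1084 CPM in m7c. DESeq2 called 2 members higher, beside 1.92% of all genes it tested, and 4 lower, beside 3.89%.

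Between the capsular and the other stellate cells, 0 members were called higher, beside 0.0281% of all genes, and 0 lower, beside 0%. Of the 41 members tested, 3 had an unadjusted p under 0.05, and the share of all genes at that p was not computed. DESeq2 called 2 higher, beside 1.73%, and 0 lower, beside 0.231%. The comparison rests on 3 sums, because the female pool held 4 cells of m7c. *Timp3* measured 1674 and 892 CPM in m3c and 516 CPM in m7c. The cluster m5c, annotated SLC (second layer cells), showed 178 and 279.5 CPM of *Adamts13* and 2877 and 2199 CPM of *Timp3*.

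In the mural clusters, the arterial smooth muscle cells m2c were compared with m8c, m9c and m15c, called the venous clusters here. The cluster m15c was annotated elaSMC, and its arterial mural markers summed to 2104 CPM, above the 1861 CPM of m2c, with m8c and m9c at 124 and 189 CPM. Arterial cells had 0 members higher than these clusters, beside 0.904% of all genes, and 4 lower, beside 0.722%. *Mmp2* measured 25.4 and 31.0 CPM in the arterial cluster m2c, while m9c stood at 493 and 368 CPM and m15c at 647 and 369.7 CPM (log2 fold change -3.73, SE 0.70, adjusted p = 0.00487). The female pool of m8c, with 12 cells, stood at 32.6 CPM, only just above the arterial sums, and its male pool at 507 CPM. *Adamts2* fell from a mean over the venous clusters of 735 CPM to 58.5 CPM (-3.52 ± 0.47), *Mmp23* from 564 to 95.8 CPM (-2.49 ± 0.39) and *Adamtsl2* from 298 to 14.9 CPM (-4.15 ± 0.84). None of the arterial sums overlapped with a venous sum for these 4 genes, and the share of all genes without overlap was not computed. Without m15c all 4 calls held, with 1 member called higher, beside 0.836% of all genes, and 6 lower, beside 1.15%. DESeq2 called 2 members higher, beside 2.98% of all genes it tested, and 6 lower, beside 3.14%. *Adamts1* measured 1105 and 1114 CPM in m2c, with m15c at 853 and 378 CPM, and did not pass the test against the venous clusters (1.30 ± 0.53). The dissociation genes summed to 26745 and 20366 CPM in m2c, 7006 and 10387 CPM in m8c, 947 and 2146 CPM in m9c and 11122 and 5655 CPM in m15c, so that both arterial sums were the highest. Its part in the *Adamts1* level was not tested.

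Over the endothelial clusters, *Timp3* was high everywhere, between 815 CPM in the female pool of the sinusoidal cluster e8 and 3878 CPM in the female pool of the lymphatic cluster e4, and it passed no test between endothelial groups. *Mmp14* did not pass a test either. It was lowest in the portal vein cluster e2, at 131 and 126 CPM, and highest in e3, at 335 CPM from 230 male and 514 CPM from 6 female cells (-1.27 ± 0.42 for the portal vein against the rest, adjusted p 0.176).

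The cluster e2 joins 114 cells annotated as portal vein (e2c) with 14 cells of the peribiliary vessel cluster e5c, 5 male and 9 female. It had 4 members higher than the other clusters, beside 1.85% of all genes, and 0 lower, beside 0.0819%. *Mmp15*, a membrane-bound MMP, measured 76.0 and 47.2 CPM in e2 and at most 14.8 CPM in any other endothelial sum (log2 fold change 5.88, SE 1.06, adjusted p = 0.00746). *Mmp11* was 11.04 and 35.9 CPM (6.07 ± 1.24), *Timp4* 18.9 and 8.41 CPM (4.37 ± 1.06) and *Adamtsl5* 5.46 and 21.8 CPM (5.98 ± 1.45). *Timp4* and *Adamtsl5* overlapped with other clusters, and the male pool of e6 held 60.1 CPM of *Adamtsl5*. Part of these levels came from e5c. *Mmp15* stood at 84.1 (male) and 4.81 CPM (female pool) in e2c and at 0 and 291 CPM in e5c, so that the female portal vein cells lay within the range of the other clusters. *Mmp11* stood at 12.1 and 0.185 CPM in e2c and 0.650 and 242 CPM in e5c. *Timp4* was low in e2c, at 5.55 and 0.123 CPM, against 145 and 56.2 CPM in e5c. Without the e5c cells *Mmp15* was the 1 member called higher (log2 fold change 5.42, adjusted p 0.0241), beside 1.24% of all genes, with 0 lower, beside 0.128%. The calls of *Timp4*, *Mmp11* and *Adamtsl5* then ended, at adjusted p of 0.785, 0.183 and 0.0595. The *Timp4* call also ended when the pool was fitted as a block, at an adjusted p of 0.0635. Without the sinusoidal cluster e3, 1 of the 4 calls, *Mmp15*, was left. DESeq2 called 3 members higher, beside 1.39% of all genes it tested, and 0 lower, beside 0.928%.

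Central vein endothelium (e1) had 2 members higher, beside 1.32% of all genes, and 0 lower, beside 0.0873%. *Adamtsl1* measured 25.1 and 36.6 CPM, above every sum except the female lymphatic one (log2 fold change 5.20, SE 1.0, adjusted p = 0.0137). *Adamts14* measured 1.64 and 7.55 CPM and at most 0.508 CPM in every other endothelial sum (log2 fold change 5.86, SE 1.01, adjusted p = 0.00765). The cluster e7, which the authors also annotated as central vein, showed 0.169 and 15.98 CPM of *Adamtsl1*. Without e3 the *Adamtsl1* call ended, at an adjusted p of 0.0564, while both calls held without e7 and with e1 and e7 joined as central vein. DESeq2 called 2 members higher, beside 1.30% of all genes it tested, and 0 lower, beside 1.12%.

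A group of 5 clusters was compared with the clusters e1, e2 and e4 of vein and lymphatic vessels. It held e3, e5 and e8, annotated as sinusoid, e6, annotated as last sinusoid, and e7, which the authors annotated as central vein. Sinusoid markers summed to 6209 to 6983 CPM in e3, e5 and e8 and 2965 CPM in e6 but 794 CPM in e7, whose central vein markers stood at 3310.2 CPM beside 3796 CPM in e1. The group had 1 member higher, beside 0.759% of all genes, and 4 lower, beside 1.16%. The higher one was *Adamts7*, which cleaves cartilage oligomeric matrix protein, at 169 and 126 CPM in e8, 101 and 23.6 CPM in e3 and 9.87 and 4.83 CPM in the central vein (log2 fold change 5.45, SE 1.14, adjusted p = 0.0202). The groups overlapped, since the male pool of the portal vein cluster e2 held 36.7 CPM and e5 stood at 85.5 (male) and 8.71 CPM (female pool). *Timp2* was lower, at 30.2 CPM in the group and 385 CPM in vein and lymphatic clusters as means over clusters (log2 fold change -3.43, SE 0.39, adjusted p = 1.58e-04). The latter mean was carried by the lymphatic cluster e4, at 1194 and 724 CPM, since e1 stood at 98.0 and 116 CPM and e2 at 61.7 and 115 CPM. *Mmp15*, *Timp4* and *Adamtsl1* were lower too, and the calls of *Timp4* and *Adamtsl1* ended without e3, at adjusted p of 0.0673 and 0.0687. The *Timp4* call also ended without the e5c cells, at an adjusted p of 0.121. All 5 calls held without e7, and with e7 placed among the vein clusters the *Timp4* call ended, at an adjusted p of 0.129. DESeq2 called 1 member higher, beside 4.95% of all genes it tested, and 6 lower, beside 5.01%.

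Lymphatic endothelium (e4) rested on 9 male and 13 female cells. It had 8 members higher, beside 4.92% of all genes, and 1 lower, beside 1.88%, and the pools gave the same direction for 4 of the 9. *Timp2* measured 1194 and 724 CPM, while no other endothelial sum passed 116 CPM (log2 fold change 5.0, SE 0.43, adjusted p = 3.14e-06). *Adamtsl3* measured 6.24 and 75.1 CPM and at most 0.105 CPM in the rest (log2 fold change 11.63, SE 1.36, adjusted p = 5.29e-04), and *Adamtsl1* measured 16.8 and 236 CPM (7.47 ± 1.01). *Adamts7* had no count in e4, at least 99.3-fold below the other clusters pooled when 3 counts are taken as its limit. The remaining calls were carried by 1 pool: *Mmp2* measured 116 (male) and 0.558 CPM (female pool), *Adamts2* 145 and 1.12 CPM, *Adamtsl2* 147 and 0 CPM, *Mmp23* 52.4 and 0.279 CPM and *Mmp17* 0 and 108 CPM. The male pool of e4 also held 71.1 CPM of the mesenchymal marker *Pdgfrb*, against 0 CPM in the female pool, while *Pdgfra* stood at 0.624 and 0.279 CPM. Of the mural markers (*Acta2*, *Tagln*, *Notch3* and *Des*), *Acta2* stood at 758 and 0.558 CPM, and the list summed to 239 CPM in e4 against at most 25.3 CPM in another endothelial cluster. The stellate markers summed to 1066 CPM against at most 65.8 CPM, from *Reln* at 1289 and 966 CPM with *Lrat* at 0 and *Hgf* at 0.624 and 0 CPM. The peribiliary fibroblast markers summed to 363 CPM against at most 4.89 CPM, from *Thy1*, which is also on the lymphatic marker list, at 609.5 and 252 CPM with *Wif1* at 0. The part of mesenchymal RNA in the lymphatic calls was not tested. When the pool was fitted as a block, 3 of the 9 calls ended, at adjusted p of 0.211 for *Adamtsl2*, 0.239 for *Mmp23* and 0.0530 for *Mmp2*. Without e3 the calls of *Adamtsl2* and *Mmp23* ended, at adjusted p of 0.0507 and 0.0575, and DESeq2 called 9 members higher, beside 10.3% of all genes it tested, and 1 lower, beside 9.48%.

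**Figure D4:**
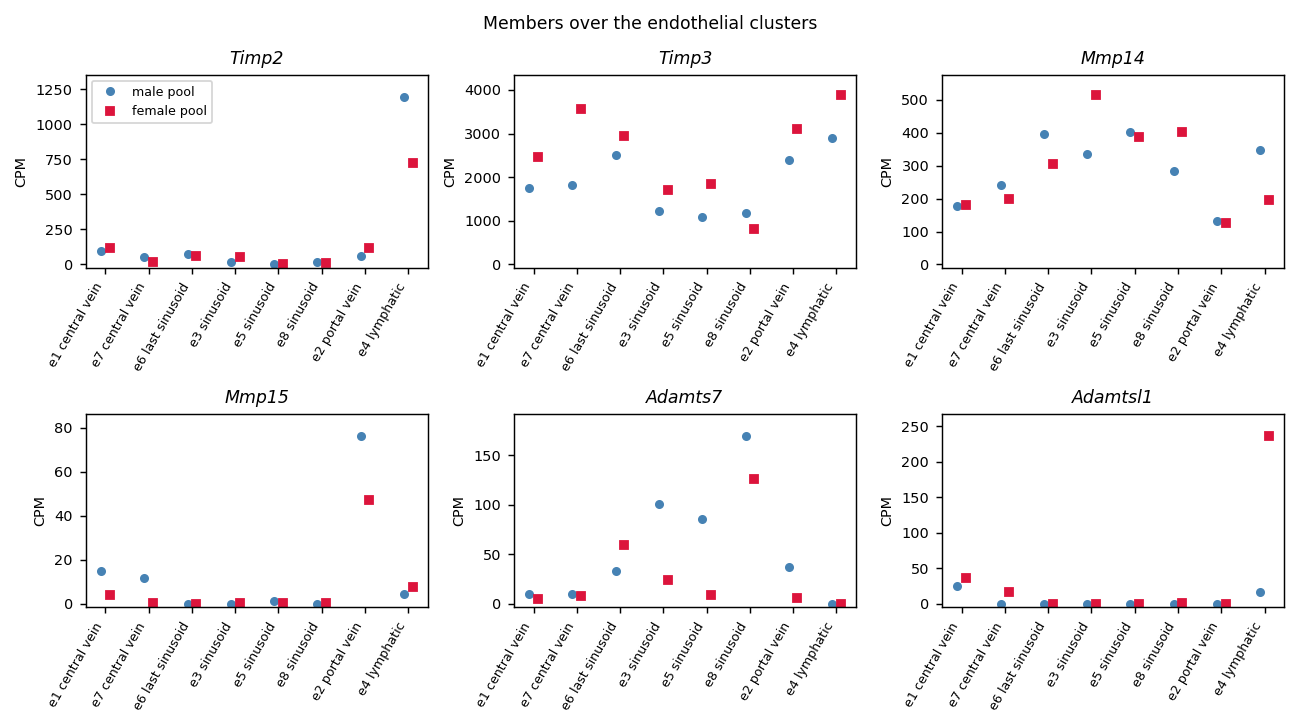
CPM of *Timp2*, *Timp3*, *Mmp14*, *Mmp15*, *Adamts7* and *Adamtsl1* (vertical axes, linear, each panel with its own scale) in the 8 endothelial clusters, with circles for the male and squares for the female pool. *Timp2* stands out in the lymphatic cluster e4 and *Mmp15* in the cluster e2, which joins portal vein and peribiliary vessel cells, while *Timp3* is above 800 CPM in every sum.

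The 10 immune populations were described without a test, and 6 of them held under 5 cells of 1 pool. *Mmp9* and *Mmp12* were highest in the monocyte cluster i2c, *Mmp13* in i4c and *Mmp27* in the Kupffer cluster i3. *Mmp27* was found in every Kupffer cell cluster, the resident liver macrophages, from 58.6 CPM in i1 to 92.2 CPM in i3, with a count in 63.2% (exact interval 55.3 to 70.6%) of the i7 cells. It was 0.204 CPM in B cells. *Mmp12* reached 201 CPM in the monocyte cluster i2c and 122 CPM in the cycling cluster i4, but 3.55 CPM in the Kupffer cluster i6, even though 44.9% (exact interval 34.4 to 55.9%) of the i6 cells had a count. Counts of *Mmp12* were also found in 23.8% of endothelial and 17.7% of mesenchymal cells, against 35.2% of immune cells. *Mmp13* reached 109 CPM in i4c, a cluster of 18 cells annotated sKC whose Kupffer markers summed to 7857 CPM against 428 CPM in i2c, from 3 cells with a count, and 59.2 CPM in i2c from 5 of 41 cells. *Mmp9* was highest in i2c at 59.1 CPM and in i6 at 37.3 CPM, from 3 and 11 cells with a count. The monocyte cluster also held *Mmp14* at 237 CPM and *Mmp25*, a membrane-bound MMP of leukocytes, at 34.2 CPM from 2 cells. The dissociation genes summed to 15262 CPM in i2c and 7820 CPM in i4c, and from 553 CPM in i1 to 6462 CPM in i5 over the other immune populations. Their part in these levels was not tested. The cluster i9c, which the authors annotated Cont, showed *Timp3*, *Adamts2* and *Adamtsl2* at 346, 122 and 138 CPM beside 191 CPM of *Pdgfrb*.

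**Figure D5:**
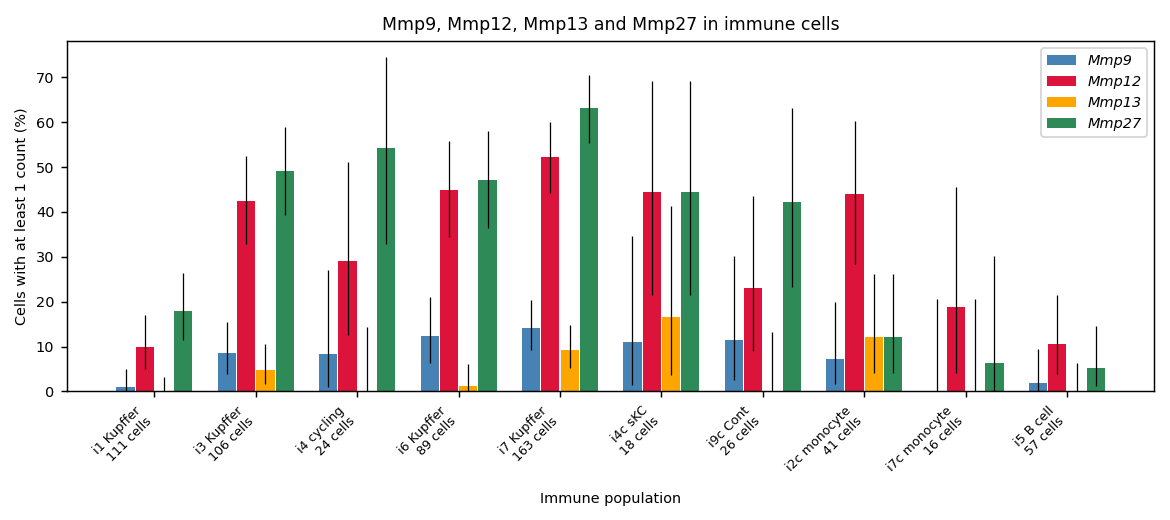
Share of cells with at least 1 count of *Mmp9*, *Mmp12*, *Mmp13* and *Mmp27* (vertical axis, percent) in the 10 immune populations, with exact binomial intervals at 95% (bars) that cover counting error only. *Mmp27* is found in 63.2% of the i7 Kupffer cells and 5.26% of the B cells, and *Mmp13* in at most 16.7% of any population.

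Within the epithelial class, the members were set out for cholangiocytes, the bile duct cells (p2), and hepatocytes. *Mmp7* measured 81.2 and 66.0 CPM in male and female cholangiocytes and at most 0.106 CPM in the 4 hepatocyte clusters, with a count in 30.9% (exact interval 24.5 to 37.9%) of the cholangiocytes. *Mmp15* measured 133 and 127 CPM against at most 4.18 CPM, *Mmp14* 244 and 202 CPM against at most 20.7 CPM, and *Adamts16* 41.9 and 175 CPM against at most 1.06 CPM. *Timp2* and *Timp3* were 212 and 318 CPM in cholangiocytes. All of these stood above every hepatocyte cluster, which was not tested because 3 of the 4 hepatocyte clusters hold male cells only. The dissociation genes summed to 10942 and 10700.1 CPM in male and female cholangiocytes and 282 to 1429 CPM in the hepatocyte clusters, and hepatocyte markers to 4291 CPM in cholangiocytes and 6534 to 16707 CPM in the hepatocyte clusters. Their part in these levels was not tested. Hepatocyte clusters had 26.4 to 48.6 CPM of *Mmp19*, above the 5.89 CPM of cholangiocytes. *Mmp2* stood at 26.4 to 29.2 CPM in all 4 hepatocyte clusters. At least 1 count was found in 62.7% (exact interval 49.1 to 75.0%) of the p4 cells. A single plate held 94.9% of the p4 and 98.2% of the p5 cells. The mesenchymal markers *Pdgfra* and *Pdgfrb* summed to 35.4 CPM in p3 and 5.51 to 7.21 CPM in the other hepatocyte clusters. The mural markers summed to 455 CPM in p3 and at most 34.6 CPM in the other hepatocyte clusters. The part of mesenchymal RNA in the *Mmp2* level was not tested.

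Several of these MMPs are neighbours in the genome. Of the 23 MMP genes, 10 lie side by side on chromosome 9 within 427 kb (chr9:7272514-7699585, GRCm38), among them *Mmp13*, *Mmp12*, *Mmp3*, *Mmp27* and *Mmp7*, whereas *Mmp9*, *Mmp14* and *Mmp15* lie elsewhere. By the sum of both pools, neighbours in this cluster were highest in different cells: *Mmp3* in fibroblasts, *Mmp7* in cholangiocytes, *Mmp27* in the Kupffer cluster i3, *Mmp13* in i4c (annotated sKC) and *Mmp12* in the monocyte cluster i2c, while *Mmp1a*, *Mmp1b*, *Mmp8*, *Mmp10* and *Mmp20* stayed at or below 2.14 CPM in every population with both pools summed. The place of *Mmp13* rests on 3 cells with a count in i4c and 5 in i2c, and no difference between immune populations was tested. Promoter windows of RefSeq (build GRCm38.p6, 250 bases before each gene's start) matched 36 of the 51 members in 39 windows. The letters TGACTCA and their reverse complement TGAGTCA, the site of the transcription factor AP-1, occurred in 7 of the 39 windows and 4.46% of all 32851 windows, and all 7 belonged to this cluster, which has 12 windows for its 10 genes. No window of *Mmp27*, *Mmp8* or *Mmp20* held them. The letters TATAAA on the gene's strand were found in 10 of the 39 windows and 7.59% of all, and both together in 6 and in 0.481%. The stretches of the 7 genes with the AP-1 letters are shown 5′ to 3′ on the gene's strand, so that neighbours of differing levels can be set side by side (no window of *Mmp12* held TATAAA), with AP-1 and TATAAA letters in capitals, from chr9:7272473-7272503 (+) for *Mmp13*, chr9:7347324-7347353 (+) for *Mmp12*, chr9:7388070-7388125 (-) for *Mmp1b*, chr9:7445770-7445820 (+) for *Mmp3*, chr9:7464062-7464118 (+) for *Mmp1a*, chr9:7502273-7502318 (+) for *Mmp10* and chr9:7692021-7692069 (+) for *Mmp7*.
Mmp13: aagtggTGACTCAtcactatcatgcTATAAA
Mmp12: caacagTGAGTCAgatagaggatttcatgg
Mmp1b: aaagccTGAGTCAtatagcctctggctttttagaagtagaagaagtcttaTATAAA
Mmp3: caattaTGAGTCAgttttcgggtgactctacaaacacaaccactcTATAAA
Mmp1a: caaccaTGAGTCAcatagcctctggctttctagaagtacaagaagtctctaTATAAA
Mmp10: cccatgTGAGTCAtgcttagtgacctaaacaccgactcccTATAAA
Mmp7: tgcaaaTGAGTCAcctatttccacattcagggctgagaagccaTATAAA
The AP-1 letters of *Mmp3* start 46 bases before its RefSeq start, those of *Mmp13* 35 bases and those of *Mmp7* 63 bases before theirs. *Mmp1a* and *Mmp1b*, with 1 and 2 counts in all cells, are near copies of each other, so their few reads could be split between them. A match of letters is a description and says nothing about binding in these cells.

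The activation of the MMP2 precursor uses MMP14 and TIMP2 together, and counts of all 3 genes in the same cell were found in 65.7% (exact interval 63.1 to 68.2%) of mesenchymal cells. The share was 85.0% (exact interval 73.4 to 92.9%) in m12c and 79.6% (exact interval 70.3 to 87.1%) in the peribiliary fibroblasts m4, 49.4% (exact interval 41.3 to 57.5%) in the portal fibroblasts m8 and 52.5% (exact interval 46.0 to 59.1%) in arterial smooth muscle. The fibroblast clusters thus did not all lie above the mural clusters, among which m15c stood at 78.8% (exact interval 61.1 to 91.0%). Outside the mesenchymal class the share was 4.97% (exact interval 3.77 to 6.42%) in endothelial, 6.30% (exact interval 4.56 to 8.45%) in immune and 22.2% (exact interval 18.2 to 26.6%) in epithelial cells. With each cell thinned to 50000 counts the share was 43.2% in mesenchymal cells, 67.3% in m4, 63.3% in m12c, 27.6% in m8 and 16.1% in m2c, so that m4 stood above m12c. It was then 1.36% in endothelial and 7.34% in epithelial cells. A gene was taken as found at 1 count or more, and the part of mesenchymal RNA in the epithelial share was not tested. In endothelial cells *Mmp14* was found in 67.9% but *Mmp2* in 11.6%, and *Timp2* in 30.1%.

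After thinning, the median mesenchymal cell held counts of 11 members, against 3 in endothelial, 2 in immune and 4 in epithelial cells, and over the populations this median ran from 1 in i1 and i5 to 13 in m1, m10 and m5c. Summed over the families, mesenchymal cells carried 2450 CPM of MMPs, 2531 CPM of TIMPs, 2207 CPM of ADAMTS and 1214 CPM of ADAMTS-like genes, and endothelial cells 355, 2037, 444 and 39.4 CPM. The peribiliary fibroblasts m4 held 4381 CPM of MMPs and 2819 CPM of TIMPs, whereas m10 held 2387 and 4018 CPM and arterial smooth muscle 439 and 1430.4 CPM.

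Over the 38 populations, the genes whose log2 levels followed *Mmp2* most closely among 17240 genes were *Htra3*, *Lum* and *Cpxm1*, with Pearson's r of 0.936, 0.932 and 0.920. *Timp3* was followed by *Syn3* at r of 0.988, and then by *Ltbp4* (0.941) and *Igfbp7* (0.940). *Timp3* lies inside *Syn3* with exons that overlap on the opposite strand, and the counting strand is not given in the sources used here, so reads of this pair cannot be told apart. *Timp1* was followed by *Htra1* (0.895), *Gpx8* (0.884) and *Pcolce* (0.877), *Timp2* by *Plxdc2* (0.856), *Clstn1* (0.852) and *Nupr1* (0.843), and *Mmp14* by *Abi2* (0.908), *Pcdhga2* (0.891) and *Pcdhga7* (0.891). Populations share pools and libraries, and these values are a description.

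A list of 40 other genes of matrix proteolysis was set beside the members. In mesenchymal cells 15 of the 37 tested were called higher (40.5%, beside 9.47% of all genes) and 1 lower (2.70%, beside 2.33%). The higher ones include *Reck*, a membrane-anchored MMP inhibitor (5.21 ± 0.57), *Pcolce*, which speeds up procollagen C-terminal processing (4.91 ± 0.44), the serine proteases *Fap* (6.55 ± 1.12) and *Htra3* (8.11 ± 1.18), the plasminogen activator *Plat* (5.75 ± 0.71) and its inhibitor *Serpine2* (6.10 ± 0.51). Endothelial cells had 3 higher (8.11%, beside 5.33%) and 3 lower (8.11%, beside 2.96%), with the broad protease inhibitor *A2m* at 8.26 ± 0.86. Immune cells had 5 higher (13.5%, beside 7.92%) and 7 lower (18.9%, beside 5.25%), with the lysosomal protease *Ctsb* at 2.16 ± 0.28. Epithelial cells had 6 higher (16.2%, beside 8.37%) and 4 lower (10.8%, beside 4.05%), among them *Plg*, the plasmin precursor (6.04 ± 0.64), and *Pzp* (4.70 ± 0.51). Fibroblasts against mural cells had 6 higher (16.7%, beside 2.58%) and 1 lower (2.78%, beside 1.29%) of 36 tested, with *Htra3* at 3.52 ± 0.31, *Plat* at 2.47 ± 0.39 and *Thsd4* at -3.44 ± 0.85. In stellate cells against fibroblasts 1 was higher (2.78%, beside 0.764%), *Papln* (7.10 ± 1.43), and 2 were lower (5.56%, beside 0.520%), *Adam33* (-5.12 ± 1.27) and *Pcolce2* (-5.58 ± 0.86). Arterial against venous mural cells had 0 higher (beside 0.904%) and 6 lower (16.7%, beside 0.722%), including *Htra3* (-3.33 ± 0.58) and *Pcolce2* (-5.38 ± 0.91). The capsular, peribiliary and *Wt1*+ comparisons had 0 in either direction. Of all genes, 0.0281%, 0.0281% and 0.23% were called higher there and 0%, 0.0281% and 0.356% lower. Of 35 tested in endothelial clusters, the central vein had 2 higher (5.71%, beside 1.32%), *A2m* (7.11 ± 1.27) and *Reck* (6.47 ± 0.89), the portal vein 3 higher (8.57%, beside 1.85%), the group of e3, e5, e6, e7 and e8 had 3 lower (8.57%, beside 1.16%) and the lymphatic cluster 7 higher (20%, beside 4.92%) and 2 lower (5.71%, beside 1.88%).

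Male and female pools were set side by side without a test. Of the 31 members at 10 CPM or more in a mesenchymal pool, 5 were at least 1 log2 unit higher in the male and 2 in the female pool, from *Adamts3* at 2.20 to *Timp4* at -2.40. In endothelial cells 2 of 15 were higher in the male and 4 in the female pool, with *Adamts1* at 1.74 and *Adamtsl2* at -1.92. The dissociation genes summed to 8773 CPM in male and 3255 CPM in female endothelial cells, and their part in the *Adamts1* difference was not tested. In immune cells 3 of 12 were higher in the male and 2 in the female pool, and in epithelial cells 1 and 6 of 18, where the share of cholangiocytes also differed.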

How the data were processed

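Smart-seq2 libraries of 3491 cells in 8 samples were analysed. The deposited table holds raw counts per gene, which the authors made from reads aligned to GRCm38 (mm10). Their processing notes name bcl2fastq, Bowtie, Bowtie2, Subread, featureCounts and Seurat, and the strand setting and duplicate removal are not given in the sources used here. The authors removed cells with low counts, few genes, high mitochondrial or ERCC shares or very many genes, and no further doublet caller was run. The median cell held 233696 counts with ERCC. Groups came from the sample labels, and clusters from the authors' annotation.

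Counts of the cells of a pool were summed per class or cluster, leaving out sums under 5 cells. They were tested with edgeR 4.0.16 (quasi-likelihood test, TMM, filterByExpr, Benjamini-Hochberg adjustment over all genes) in R 4.3.3. The class fit had 8 sums and 4 residual degrees of freedom, the mesenchymal fit 23 and 10, the endothelial fit 16 and 8. Calls required a change of 1 or more on the log2 scale at an adjusted p below 0.05. Where sums are said not to overlap, the share of all genes without overlap was not computed. Gene positions came from GENCODE vM21. Exact intervals (Clopper-Pearson, 95%) cover counting error only, and a count of 0 was given a limit of 3 counts.

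Members called in a comparison or at 10 CPM or more in a class pool or population were named with values, and the rest by name and range. The members and all lists, including the pathway list and the 13 dissociation genes, were chosen with earlier results of these data known. For 5 members the 3 genes with the most alike levels were also named. Alternatives were DESeq2 1.42.0, no count filter, thinning to 50000 counts per cell, the pool as a block, leaving out each pool, a larger cell minimum, sums per plate, a fit without e7 and another detection limit. Fits without e3, without m15c, without e5c and without m8 and m10, and other placements of e7 in the vein comparisons, were chosen after seeing the data. Means over clusters weight each cluster equally, whether it has 1 sum or 2. Within a class, sums of the same pool come from 1 sample, so the pool is a block there. The pools of different classes share sex and some plates, and no label ties them to the same mice. They deviated together with correlations of 0.0864 to 0.110 over genes. The values of 1 gene of the pathway list are not reported here.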

Additional observations from a re-analysis of the deposited data

Results flagged for a closer look

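In 9 results that passed the test, the male and the female pool moved in opposite directions, so that the call rests on 1 pool or on the mean of the other groups. The values are log2 ratios of CPM within a pool, and the difference between the pools was not tested. In mesenchymal cells against the other 3 classes, *Mmp28* stood at -0.23 in the male and 0.46 in the female pool. In endothelial cells *Adamts1* stood at 1.35 in the male and -0.70 in the female pool. In epithelial cells *Adamts15* stood at -2.85 in the male and 1.45 in the female pool. In portal vein endothelium *Adamtsl5* stood at -0.85 in the male and 5.44 in the female pool.

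The other 5 were in lymphatic endothelium, with 9 male and 13 female cells. *Adamtsl2* stood at 5.14 in the male and -4.80 in the female pool, *Mmp23* at 2.82 and -0.83, *Mmp2* at 4.24 and -1.93 and *Adamts2* at 5.84 and -0.46. *Mmp17* took the other direction, at -2.35 in the male and 6.79 in the female pool.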

How the results depend on the processing

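Counts of called members moved by more than 1.5 times in the following cases, and the cause was not tested. Shares of all genes called are given above for DESeq2 and for some fits without a cluster. They were not computed for the other settings, where a change of the members cannot be told apart from a change of all genes. With DESeq2 they were 19 in endothelial, 29 in immune and 20 in epithelial cells, 13 in fibroblasts against mural cells, 6 in stellate cells, 2 in capsular stellate cells, 1 in peribiliary fibroblasts, 7 in *Wt1*+ fibroblasts and 8 in arterial mural cells. With no count filter they were 20, 25 and 20 in endothelial, immune and epithelial cells, 12 in fibroblasts, 6 in stellate cells, 4 in peribiliary and 5 in *Wt1*+ fibroblasts, 9 in arterial mural cells and 4 in the central vein. After thinning they were 8 in arterial mural cells and 1 in the central vein. Sums per plate gave 4 in fibroblasts, 6 in stellate cells, 1 in *Wt1*+ fibroblasts, 5 in the central vein, 3 in the group of e3, e5, e6, e7 and e8 and 4 in the lymphatic cluster. At least 10 cells per sum gave 1 in *Wt1*+ fibroblasts. Without m8 and m10 they were 11 in fibroblasts and 0 in *Wt1*+ fibroblasts, without m15c 7 in arterial mural cells, without e5c 1 in the portal vein, and without e3 they were 1 in the central vein, 1 in the portal vein and 3 in that group.

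In a single pool, which allows no test, the called members that kept their direction and a log2 ratio of 1 numbered 25 in mesenchymal, 9 to 11 in endothelial, 15 in immune and 11 to 12 in epithelial cells. They were 6 to 7 in fibroblasts, 3 in stellate cells, 3 in *Wt1*+ fibroblasts, 4 in arterial mural cells, 1 to 2 in the central vein, 3 to 4 in the portal vein, 5 in that group and 5 to 8 in the lymphatic cluster. Over the 2 pools the ratio ran from -0.23 to 0.46 for *Mmp28* in mesenchymal, from -0.70 to 1.35 for *Adamts1* in endothelial and from -2.85 to 1.45 for *Adamts15* in epithelial cells, and from -0.85 to 5.44 for *Adamtsl5* in the portal vein. In the lymphatic cluster it ran from -4.80 to 5.14 for *Adamtsl2*, from -0.83 to 2.82 for *Mmp23*, from -1.93 to 4.24 for *Mmp2*, from -0.46 to 5.84 for *Adamts2* and from -2.35 to 6.79 for *Mmp17*. There the directions of *Adamtsl2*, *Mmp23*, *Mmp2* and *Adamts2* also turned with at least 10 cells per sum (-8.36, -1.59, -1.39 and -0.61) and with sums per plate (-6.90, -1.74, -1.90 and -0.81).

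With the pool as a replicate block 91 of 103 named calls were kept and 12 were lost. Between clusters of a class, where sums of a pool share a sample, 4 were lost, *Timp4* in the portal vein and *Adamtsl2*, *Mmp23* and *Mmp2* in the lymphatic cluster, which leaves 6 calls there, and no other of these calls between clusters ended. Between classes the pools of a block share sex and some plates, and no label ties them to the same mice. The calls lost there were *Timp4* and *Adamts16* in mesenchymal cells (adjusted p 0.0761 and 0.0776), *Adamts4*, *Mmp23* and *Mmp21* in endothelial cells (0.0541, 0.0718 and 0.0527), *Mmp11* and *Adamts2* in immune cells (0.0739 and 0.0598) and *Mmp28* in epithelial cells (0.0531), with counts of 26, 10, 14 and 13 called. DESeq2 kept 101, no filter 103 and thinning 91. DESeq2 moved the median of all genes by 0.45 in the lymphatic comparison and by -0.19 in arterial mural cells. The class with the highest level was the same for 36 of 36 members after thinning. The class with the largest share of cells with the gene was the same for 35 of 36 members when 20 counts were required in place of 1, with *Mmp14* the exception. Few cells per sum limit the smallest clusters, and the count per cell limits members near 1 CPM.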
